A study of Homo sapiens with 6 samples.

Results

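The mitochondrial genome of human cells has 13 protein-coding genes, each counted here as 1 mRNA. They were examined with 24 nuclear genes whose products copy that genome, transcribe it or act on its RNA. The 37 members were found by matching listed gene symbols to Ensembl identifiers, and all 37 had a row among the 20036 genes of the table. Of these, 36 had a mean of at least 1 FPKM (fragments scaled by gene length and library total) and were tested, 13 mitochondrially encoded mRNAs and 23 nuclear factors. The termination factor family member MTERF2 was below that level, at 0.725 ± 0.178 FPKM after corilagin and 0.706 ± 0.180 FPKM after DMSO (SD, n = 3 each). Expression was measured by RNA sequencing in MV411, a human acute myeloid leukaemia cell line of WT genotype, after 48 h with corilagin, a plant tannin, or with the solvent DMSO. Each group had 3 libraries. The sources used here give no corilagin dose. The series names pyroptosis, an inflammatory form of cell death, as its subject, and the mitochondrial comparison was not stated as a question of its own.

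Mitochondrial DNA is a compact circle that is transcribed in both directions by the polymerase POLRMT with the initiation factors TFAM and TFB2M, giving long precursors from which mRNAs, tRNAs and rRNAs are cut. The mRNAs encode core subunits of respiratory complexes I, III and IV and of the ATP synthase (complex V), while all other subunits of those complexes come from nuclear genes. After cleavage, the mRNAs are bound and stabilised by the LRPPRC and SLIRP pair, tailed by MTPAP, and shaped or degraded by FASTK family proteins and by the PNPT1 and SUPV3L1 degradosome.

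The libraries held 17776956 to 21640689 fragments. The 3 libraries of a group are not stated to be separate cultures, so p-values measure only how much these libraries vary, and that variation may be technical. DMSO replicate 3 stood apart from DMSO replicates 1 and 2 by base composition. In the eighth of tested genes with the lowest transcript GC content (31.32 to 38.95%), the mean log2 deviation from each gene's overall mean was 0.20, 0.23 and 0.26 in the corilagin libraries, against -0.50, -0.43 and 0.24 in DMSO replicates 1, 2 and 3. Leukaemia line markers were present, with FLT3 at 307 to 318 FPKM after corilagin and 186 to 261 FPKM after DMSO. SPI1 was at 109 to 113 and 120 to 158 FPKM, and MPO was near 0 (0.321 to 0.710 and 1.25 to 1.93 FPKM). The erythroid marker HBB, the epithelial markers EPCAM and KRT19 and the B cell marker MS4A1 were at 0 in every library. CD3E and CD3D were at 0 to 0.0542 FPKM.

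The mitochondrial genes lie end to end on chrM (coordinates of GENCODE release 29, GRCh38), and several share bases or a boundary, which bears on how reads can be assigned. MT-ATP8 and MT-ATP6, both subunits of the ATP synthase, share 46 bases, and MT-ND4L and MT-ND4, both of complex I, share 7. The genes of each such pair can lie on the same transcript, so their values need not be separate observations. In the stretches below, read on the plus strand from chrM:8513-8572 and chrM:10746-10766, capitals mark the shared bases, which begin with the start codon of the downstream gene.
MT-ATP8 and MT-ATP6: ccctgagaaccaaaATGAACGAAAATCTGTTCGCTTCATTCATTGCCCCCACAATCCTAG
MT-ND4L and MT-ND4: ctaaacctactccaATGCTAA
MT-ATP6 and MT-CO3 share 1 base. MT-ND5 ends at base 14148, and MT-ND6, read from the opposite strand, ends at the adjoining base 14149. The protocols say nothing of strand being kept. If it was not, reads from opposite strands cannot be told apart, at this boundary or anywhere within MT-ND6. The MT-ND6 values may then include RNA read from the strand of MT-ND5.

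The annotated 3′ ends of the genes fall into 2 kinds. In 7 of the 13 genes the annotated reading frame ends with a whole 3-base stop signal. In 6 only its first 1 or 2 bases are encoded, so that the UAA stop is completed by the poly(A) tail. The last base of the MT-ATP6 stop is the base shared with MT-CO3, so the cut MT-ATP6 mRNA may also lack a whole stop. MT-ND6 is known to lack a stable tail, and the libraries were made from RNA captured on oligo(dT), so levels of different mRNAs are not compared as numbers of molecules. The last 24 bases of the 7 genes whose share of the mitochondrial mRNA pool separated the groups (below) are given 5′ to 3′ on the coding strand, with the encoded stop bases in capitals.
MT-CO3: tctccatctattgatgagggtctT
MT-ND5: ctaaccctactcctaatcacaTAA
MT-ND6: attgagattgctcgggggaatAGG
MT-ATP6: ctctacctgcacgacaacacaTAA
MT-ND4: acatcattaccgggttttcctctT
MT-CYB: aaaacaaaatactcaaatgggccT
MT-ND2: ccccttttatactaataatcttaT

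All 13 mitochondrially encoded mRNAs had a fitted log2 difference below 0 (corilagin minus DMSO, on the log2(FPKM + 1) scale), with a median of -0.41, beside 0.03 over the 9868 genes tested. Quantile normalization, which gives the top-ranked genes the same values in every library by construction, left 7 of the 13 below 0, with MT-ND4 and MT-CYB at 0.032 and 0.031. By limma with Benjamini-Hochberg adjustment over those genes, 4 of the 13 passed an adjusted p of 0.05 as lower after corilagin and 0 as higher, where 13.5% of all tested genes were lower and 11.9% higher. At an unadjusted limma p under 0.05 the counts were 10 lower and 0 higher, beside 2068 and 2396 of the 9868 genes. By limma-voom on recovered fragments 4 and 0 passed the adjusted threshold, beside 1328 and 1238 of those genes. In bulk RNA, fewer cells of a kind and less RNA per cell cannot be told apart.

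Among the complex I mRNAs, MT-ND5 (ENSG00000198786, chrM:12337-14148) stood at 1141, 1163 and 988 FPKM after corilagin, against 2021, 1744 and 1405 FPKM after DMSO. Every corilagin library was below every DMSO library. Its mean was 0.637 times that of DMSO, and its log2 difference was -0.64 (SE 0.141, limma adjusted p 0.0220). MT-ND6 (ENSG00000198695, chrM:14149-14673, minus strand), its neighbour on the other strand, had 470, 540 and 458 FPKM after corilagin and 873, 760 and 608 FPKM after DMSO. The groups did not overlap, and the log2 difference was -0.60 (SE 0.140, limma adjusted p 0.0261). The other 5 complex I mRNAs, MT-ND1, MT-ND2, MT-ND3, MT-ND4 and MT-ND4L, did not pass the test. Their log2 differences were between -0.46 and -0.31. MT-ND4L alone of these did not overlap, with 953, 1024 and 896 FPKM after corilagin and 1522, 1440 and 1032 FPKM after DMSO.

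Of the complex IV mRNAs, which encode the catalytic core of cytochrome c oxidase, only MT-CO3 passed. MT-CO3 (ENSG00000198938, chrM:9207-9990) had 5793, 6303 and 5809 FPKM after corilagin, against 10387, 8966 and 6810 FPKM after DMSO. All 3 corilagin libraries lay below the lowest DMSO library, which was DMSO replicate 3. The ratio of means was 0.684 and the log2 difference -0.53 (SE 0.150, limma adjusted p 0.0423). This call was lost under quantile normalization, where 3 of the 13 passed as lower (MT-ND5, MT-ND6 and MT-ATP8), beside 1498 of the 9868 tested genes. MT-CO1, the most abundant of the 13 per length, had 7167, 7585 and 6878 FPKM after corilagin and 11492, 9718 and 7284 FPKM after DMSO. Here corilagin replicate 2 was above DMSO replicate 3, and the difference did not pass (log2 -0.37, limma adjusted p 0.111). MT-CO2 also overlapped and had a log2 difference of -0.37 (limma adjusted p 0.1). MT-CYB, the only mitochondrially encoded subunit of complex III, had 2088, 2338 and 2185 FPKM after corilagin, against 3274, 2799 and 2183 FPKM after DMSO. Its log2 difference was -0.30 (limma adjusted p 0.143), and 2 of its corilagin libraries were above DMSO replicate 3.

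Both ATP synthase genes of the 13, which share bases, had corilagin libraries wholly below the DMSO libraries. Of the 13, 6 were lower without overlap and 0 higher, beside 23.3% and 25% of all tested genes. MT-ATP8 (ENSG00000228253, chrM:8366-8572), the shortest and the lowest of the 13, had 68.8, 87.7 and 61.2 FPKM after corilagin and 130, 119 and 95.7 FPKM after DMSO. Its log2 difference was -0.66 (SE 0.162, limma adjusted p 0.0292). MT-ATP6 had 1636, 1942 and 1684 FPKM after corilagin, against 3038, 2582 and 1970 FPKM after DMSO, and its log2 difference of -0.51 missed the threshold (limma adjusted p 0.0546). The 46 shared bases are a larger part of MT-ATP8 than of MT-ATP6. MT-ATP8 had 232 to 527 fragments in a library, and MT-ATP6 had 20990 to 40667. The counting settings are not stated, and fragments touching both genes may have been left out. The level and the call of MT-ATP8 may then rest on a small part of its fragments.

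**Figure D1:**
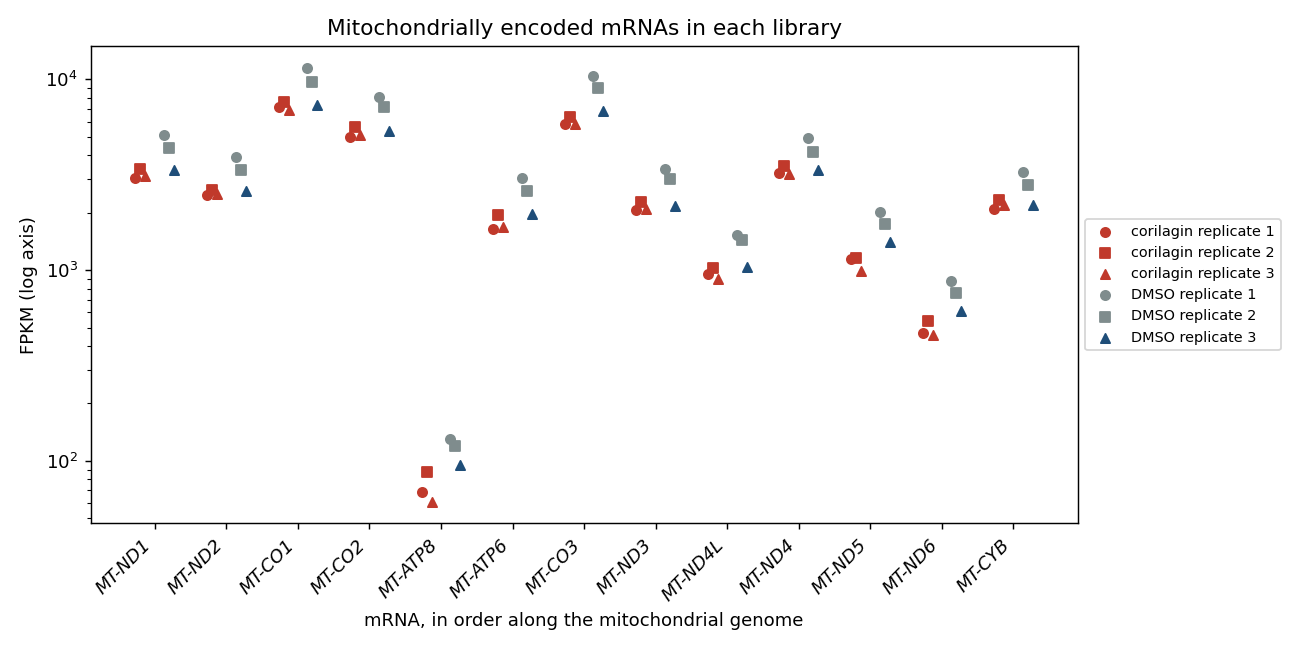
FPKM of each mitochondrially encoded mRNA (vertical log axis) in order along the mitochondrial genome, with 1 point for each library. DMSO replicates 1 and 2 are the highest points of every mRNA, and DMSO replicate 3 lies next to or among the corilagin libraries, from which it is separate for MT-ND5, MT-ND6, MT-CO3, MT-ATP6, MT-ATP8 and MT-ND4L.

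How many of the 13 passed changed with each library left out. Without DMSO replicate 3, all 13 were lower, where 36.5% of all tested genes were. Without any 1 of the other 5 libraries, all 13 kept their direction and 0 passed by limma. Of the 9868 tested genes, 176 to 483 were lower in those fits. At an unadjusted limma p under 0.05, 4 to 7 of the 13 were lower, beside 1414 to 1553 of all tested genes. With no filter on low values 0 of the 13 passed as well, beside 935 of the same 9868 genes that were lower. At an unadjusted limma p under 0.05, 5 of the 13 were lower in that fit, beside 2026 of those genes. With DMSO replicate 3 as the only control, assumed to vary like the corilagin libraries, the same 4 mRNAs had adjusted p-values under 0.05 (limma, log2 -0.36 for MT-ND5, -0.32 for MT-ND6, -0.19 for MT-CO3 and -0.41 for MT-ATP8), where 18.6% of all tested genes were lower. The median over the 13 was then -0.08, and MT-CYB was at 0.012. The base composition of the 13 mRNAs, 39.6 to 47.7% GC, lies in the lower part of the range over all genes, where nuclear genes went the other way. Over 3187 nuclear genes of that GC range the mean log2 deviation was 0.09, 0.08 and 0.11 in the corilagin libraries, against -0.20, -0.16 and 0.08 in DMSO replicates 1, 2 and 3. Over the 13 mRNAs it was -0.27, -0.12 and -0.30 after corilagin, against 0.48, 0.29 and -0.09 after DMSO. With each library's trend with GC removed, 7 of the 13 were lower, beside 23% of all genes, and the median was -0.56.

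As a share of all sequenced fragments, the 13 mRNAs made up 3.58% (Wilson 95% interval 3.57 to 3.58%), 3.87% (3.87 to 3.88%) and 3.53% (3.52 to 3.54%) of the corilagin libraries. In DMSO replicates 1, 2 and 3 they made up 5.87% (5.86 to 5.88%), 5.03% (5.02 to 5.04%) and 3.85% (3.85 to 3.86%). These intervals cover counting error only, since PCR copies cannot be told from separate molecules. The means were 3.66 ± 0.186% after corilagin and 4.92 ± 1.01% after DMSO (SD, n = 3 each), a ratio of 0.744. DMSO replicate 3 fell inside the corilagin range, so the groups overlapped by 1 library. Of the summed FPKM, the 13 mRNAs took 15.0, 16.2 and 15.0% after corilagin, against 21.8, 19.2 and 16.0% after DMSO. Because they take so large a part of the sum, a change in them shifts the FPKM-based share of every other gene.

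The ratio of mean summed FPKM, corilagin over DMSO, was 0.740 for the 13 mRNAs and 0.762 for the nuclear genes of the same respiratory complexes. The summed FPKM of 75 nuclear subunit genes was 2715, 2774 and 2765 after corilagin and 3703, 3807 and 3326 after DMSO, and these groups did not overlap. The 13 mitochondrial mRNAs summed to 12.9, 13.8 and 12.7 times the nuclear subunit mRNAs after corilagin, against 15.7, 13.2 and 11.5 times after DMSO. These ratios averaged 13.1 ± 0.616 and 13.4 ± 2.12 (SD, n = 3 each), so no difference in the balance of the 2 genomes' mRNAs was resolved beyond the spread of the DMSO libraries. The difference of the mean ratios, -0.314, turned to 0.808 without DMSO replicate 1.

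**Figure D2:**
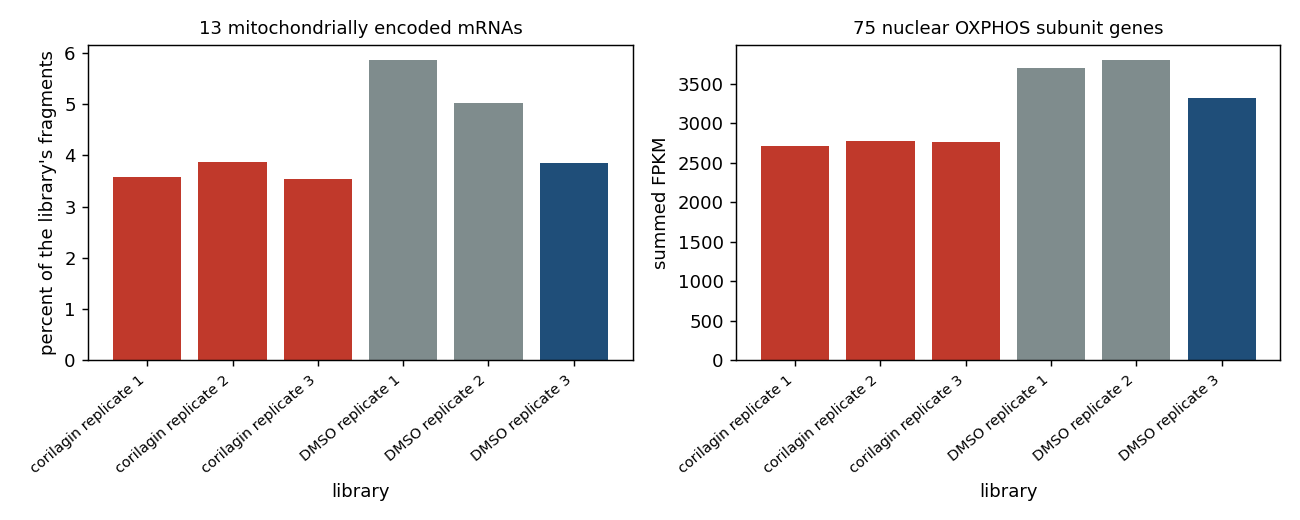
Left, the 13 mitochondrially encoded mRNAs as percent of each library's fragments. Right, summed FPKM of 75 nuclear genes for subunits of complexes I, III, IV and V. Bars are single libraries, corilagin then DMSO; DMSO replicate 3 is within the corilagin range on the left at 3.85% and above all corilagin libraries on the right.

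The mitochondrial mRNA pool also differed in its makeup, a measure that does not depend on how a library is scaled. Each mRNA was expressed as percent of the summed FPKM of the 13. For 4 mRNAs this share was lower in every corilagin library than in every DMSO library, for 3 it was higher, and for 6 the groups overlapped. The shares sum to 100 and are therefore not independent of each other. With 3 against 3 libraries, a 2-sided exact permutation test cannot give a p below 0.1, and each of the 7 separated shares reached that value, so none can pass 0.05 by this test.

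MT-CO3 showed the tightest separation. Its share was 16.5, 16.4 and 16.6% after corilagin, against 17.9, 17.9 and 17.8% after DMSO. DMSO replicate 3, which resembled the corilagin libraries in base composition and in total mitochondrial mRNA, lay with the other DMSO libraries here. The means were 16.5 ± 0.0891% and 17.9 ± 0.0351% (SD, n = 3 each). MT-ND5 held 3.25, 3.03 and 2.83% after corilagin and 3.48, 3.48 and 3.68% after DMSO. MT-ND6 held 1.34, 1.41 and 1.31% after corilagin, against 1.5, 1.52 and 1.59% after DMSO. For both, DMSO replicate 3 was the library farthest from the corilagin group. MT-ATP6 was the fourth lower share, at 4.85 ± 0.202% after corilagin and 5.18 ± 0.0426% after DMSO (SD, n = 3 each).

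The higher shares were those of MT-ND4, MT-CYB and MT-ND2. MT-ND4 held 9.23, 9.11 and 9.07% after corilagin, against 8.45, 8.30 and 8.78% after DMSO. MT-CYB held 5.95, 6.10 and 6.25% after corilagin, against 5.63, 5.59 and 5.71% after DMSO. MT-ND2 held 7.03 ± 0.151% after corilagin and 6.75 ± 0.0637% after DMSO (SD, n = 3 each). Since the summed level was lower after corilagin, a higher share here goes with a smaller difference in FPKM and not with a higher level. By the printed gene ends, the 3 with higher shares have a single encoded T of the stop, as MT-CO3 does. MT-ND5, MT-ND6 and MT-ATP6 are annotated with a whole stop signal, which in MT-ATP6 includes the base shared with MT-CO3. This sorting was noticed after the values were seen and was not tested. It rests on annotated gene ends, and the ends of the mRNAs were not measured. MT-ND5 and MT-ND6, which abut on opposite strands, both had lower shares, and so did MT-ATP6 and MT-CO3, which overlap by 1 base. If strand was not kept, the shares of MT-ND5 and MT-ND6 may not be separate observations.

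**Figure D3:**
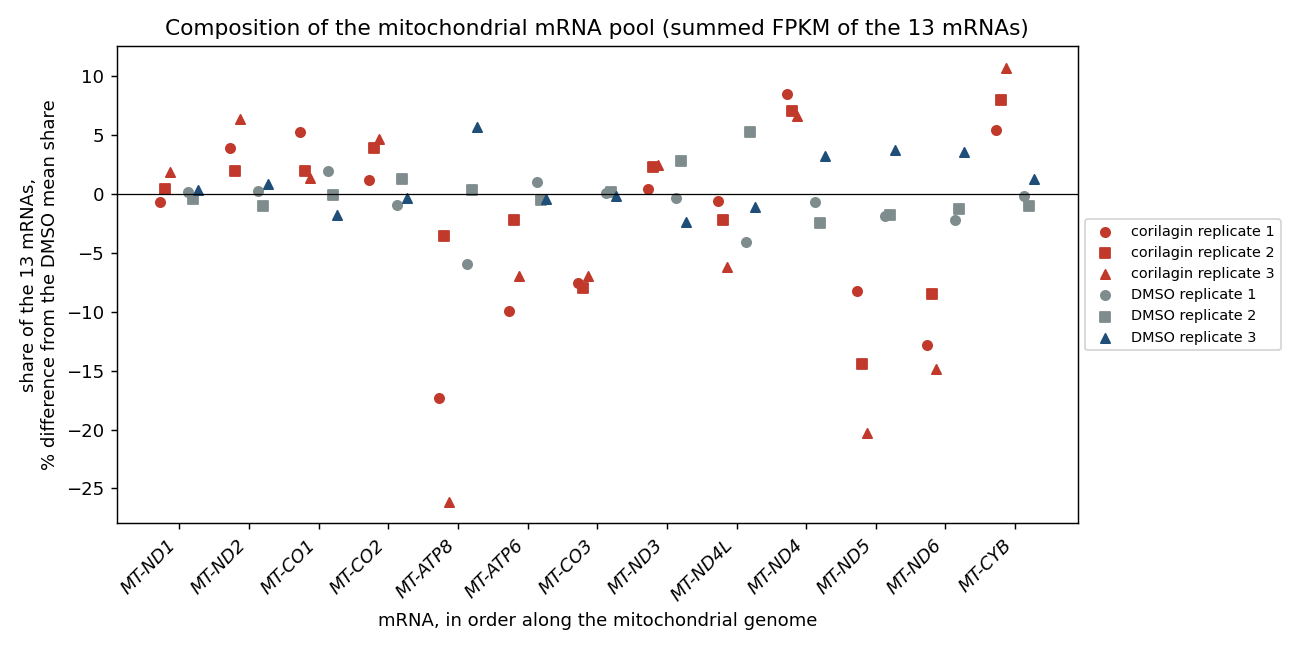
Share of each mRNA in the summed FPKM of the 13, drawn as percent difference from the mean DMSO share, with 1 point for each library. The corilagin points lie below all DMSO points for MT-CO3, MT-ND5, MT-ND6 and MT-ATP6 and above them for MT-ND4, MT-CYB and MT-ND2; MT-ATP8 has the widest corilagin spread and overlaps.

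Of the 23 nuclear factors tested, 7 were lower after corilagin and 0 were higher by limma (POLRMT, TWNK, POLG, SSBP1, TBRG4, SLIRP and SUPV3L1), beside 13.5% and 11.9% of all tested genes, with a median log2 difference of -0.06 that turned to 0.041 when FPKM sums were set equal. At an unadjusted limma p under 0.05 the counts were 9 lower and 1 higher, beside 2068 and 2396 of all 9868 tested genes. By limma-voom 7 and 0 passed the adjusted threshold, beside 1328 and 1238 of all tested genes. Groups did not overlap for 8 lower factors, the 7 and TFB1M, and for 2 higher ones, MTERF1 and MTERF4, where 23.3% of all tested genes were lower without overlap and 25% higher. Without DMSO replicate 3, 9 factors were lower and 8 higher, beside 36.5% and 40.8% of all tested genes. The count of lower factors was 3 without DMSO replicate 1, where 483 of all 9868 tested genes were lower. It was 1 without any 1 of DMSO replicate 2 and the corilagin libraries, where 176 to 298 were lower. TWNK passed in all 6 of these fits, TBRG4 and SLIRP in the 2 without DMSO replicate 1 or 3, and the other 4 in the fit without DMSO replicate 3. The highest limma adjusted p over the 6 fits was 0.0380 for TWNK, 0.0646 for TBRG4, 0.0838 for SLIRP, 0.0802 for POLRMT, 0.137 for POLG, 0.161 for SSBP1 and 0.130 for SUPV3L1.

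Among the transcription factors of the mitochondrion, the single-subunit RNA polymerase POLRMT (ENSG00000099821, chr19:617224-633604) had 9.19, 8.42 and 8.80 FPKM after corilagin, against 17.6, 16.6 and 11.9 FPKM after DMSO. Every corilagin library was below every DMSO library, of which replicate 3 was the lowest. The mean was 0.572 times that of DMSO and the log2 difference was -0.72 (SE 0.144, limma adjusted p 0.0164). TFAM, which packages mitochondrial DNA and starts its transcription, had 18.5, 17.7 and 20.3 FPKM after corilagin and 11.6, 12.9 and 23.7 FPKM after DMSO. The corilagin libraries lay above DMSO replicates 1 and 2 and below DMSO replicate 3, and the difference did not pass (log2 0.29, limma adjusted p 0.369). With the GC trend removed it was -0.13 (limma adjusted p 0.245).

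The promoter-melting factor TFB2M had 15.2, 16.6 and 15.9 FPKM after corilagin, against 16.1, 16.4 and 24 FPKM after DMSO (log2 -0.21, limma adjusted p 0.311). Only DMSO replicate 3 was clear of the corilagin range. With the GC trend removed TFB2M was lower (log2 -0.47, limma adjusted p 0.000919). TFB1M, which methylates mitochondrial ribosomal RNA, had 2.76 ± 0.294 FPKM after corilagin and 3.57 ± 0.313 FPKM after DMSO (SD, n = 3 each), with a log2 difference of -0.28 (limma adjusted p 0.0661). The elongation factor TEFM took after TFAM, at 4.6, 4.91 and 5.67 FPKM after corilagin, against 3.18, 3.41 and 6.03 FPKM after DMSO. The terminator-binding protein MTERF1 had 3.88, 3.78 and 3.86 FPKM after corilagin, against 1.57, 1.84 and 3.56 FPKM after DMSO. Its groups did not overlap, yet DMSO replicate 3 was close to the corilagin libraries, and the log2 difference of 0.59 missed the threshold (limma adjusted p 0.0675). MTERF4, a partner of the rRNA methyltransferase NSUN4, was at 3.95 ± 0.199 FPKM after corilagin and 3.44 ± 0.0866 FPKM after DMSO (SD, n = 3 each; log2 0.15, limma adjusted p 0.152). MTERF3, which binds mitochondrial DNA near the promoters in mice, showed a log2 difference of -0.04 (limma adjusted p 0.828).

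Of the replication factors, 3 of 4 passed, all lower, where 13.5% of all tested genes were lower. The helicase TWNK (ENSG00000107815, chr10:100987367-100994401), which unwinds mitochondrial DNA at the fork, had 7.61, 7.01 and 7.94 FPKM after corilagin, against 14.2, 14.2 and 12.1 FPKM after DMSO. The 2 groups were far apart, with DMSO replicate 3 on the side of the other DMSO libraries. The ratio of means was 0.558 and the log2 difference -0.76 (SE 0.0962, limma adjusted p 0.00448). With the GC trend removed the log2 difference was -0.64, and against DMSO replicate 3 alone it was -0.62. The catalytic DNA polymerase subunit POLG (ENSG00000140521, chr15:89305198-89334861) had 8.57, 9.05 and 8.86 FPKM after corilagin and 13.4, 12.5 and 10.2 FPKM after DMSO. The groups did not overlap, and the log2 difference was -0.40 (SE 0.108, limma adjusted p 0.0371). With no filter on low values the calls of POLG and SSBP1 were lost (limma adjusted p 0.0560 and 0.0576). The single-strand binding protein SSBP1 (ENSG00000106028, chr7:141738321-141787922) had 13.5, 15.2 and 14.7 FPKM after corilagin, against 17.0, 18.0 and 20.3 FPKM after DMSO. Here DMSO replicate 3 was the farthest from the corilagin libraries, with a log2 difference of -0.33 over all libraries (SE 0.0941, limma adjusted p 0.0433). The SSBP1 call was lost when FPKM sums were set equal (limma adjusted p 0.168). The accessory polymerase subunit POLG2 had 9.05 ± 0.547 FPKM after corilagin and 9.02 ± 1.46 FPKM after DMSO (SD, n = 3 each).

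Of 11 factors of mitochondrial RNA stability and processing, 3 were lower by limma, where 13.5% of all tested genes were lower, and 8 did not pass. TBRG4 (ENSG00000136270, chr7:45100100-45112047), the FASTK family member also called FASTKD4, had 10.7, 11.4 and 10.4 FPKM after corilagin, against 21.0, 20.9 and 15.5 FPKM after DMSO. No library of one group reached the other, and the log2 difference was -0.76 (SE 0.128, limma adjusted p 0.0108) at a ratio of means of 0.566. SLIRP (ENSG00000119705, chr14:77708071-77761104), the RNA-binding partner of LRPPRC, had 11.1, 11 and 11 FPKM after corilagin, against 14.1, 17.2 and 15.7 FPKM after DMSO. The corilagin libraries were nearly equal to each other and all below DMSO (log2 -0.47, SE 0.0921, limma adjusted p 0.0162). LRPPRC had 11.7, 12.3 and 12.3 FPKM after corilagin, against 7.81, 8.54 and 14.7 FPKM after DMSO. It lay between the DMSO libraries, with a log2 difference of 0.25 (limma adjusted p 0.355). The length behind its FPKM was 34689 bases, where its longest annotated transcript has 6335, so its level per length is not comparable with that of SLIRP.

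The helicase SUPV3L1 (ENSG00000156502, chr10:69180232-69209099), which feeds RNA to the mitochondrial degradosome, had 9.87, 10.2 and 9.52 FPKM after corilagin, against 12.6, 13 and 12 FPKM after DMSO. Its DMSO libraries were close together and all above corilagin (log2 -0.32, SE 0.0774, limma adjusted p 0.0292). With FPKM sums set equal its adjusted p was 0.0580 by limma. The exonuclease PNPT1 of the same complex had 11.1, 10.6 and 11.7 FPKM after corilagin, against 10.8, 12.4 and 18.1 FPKM after DMSO, and did not pass (log2 -0.25, limma adjusted p 0.274). The poly(A) polymerase MTPAP was at 4.22 ± 0.432 FPKM after corilagin and 4.47 ± 0.977 FPKM after DMSO (SD, n = 3 each; log2 -0.06, limma adjusted p 0.772). The founding family member FASTK, needed for MT-ND6 mRNA, had 9.75 ± 0.382 FPKM after corilagin and 12.1 ± 1.81 FPKM after DMSO (SD, n = 3 each; log2 -0.28, limma adjusted p 0.110). FASTKD1, FASTKD2, FASTKD3 and FASTKD5, which act on the processing or stability of single mitochondrial RNAs, had log2 differences between -0.06 and 0.22, and none passed. With the GC trend removed FASTKD1, FASTKD2 and FASTKD3 were lower (log2 -0.32, -0.25 and -0.32, limma adjusted p 0.00276, 0.00782 and 0.0166), and without DMSO replicate 3 they were higher (log2 0.31, 0.44 and 0.36, limma adjusted p 0.000196, 0.000126 and 0.000617).

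**Figure D4:**
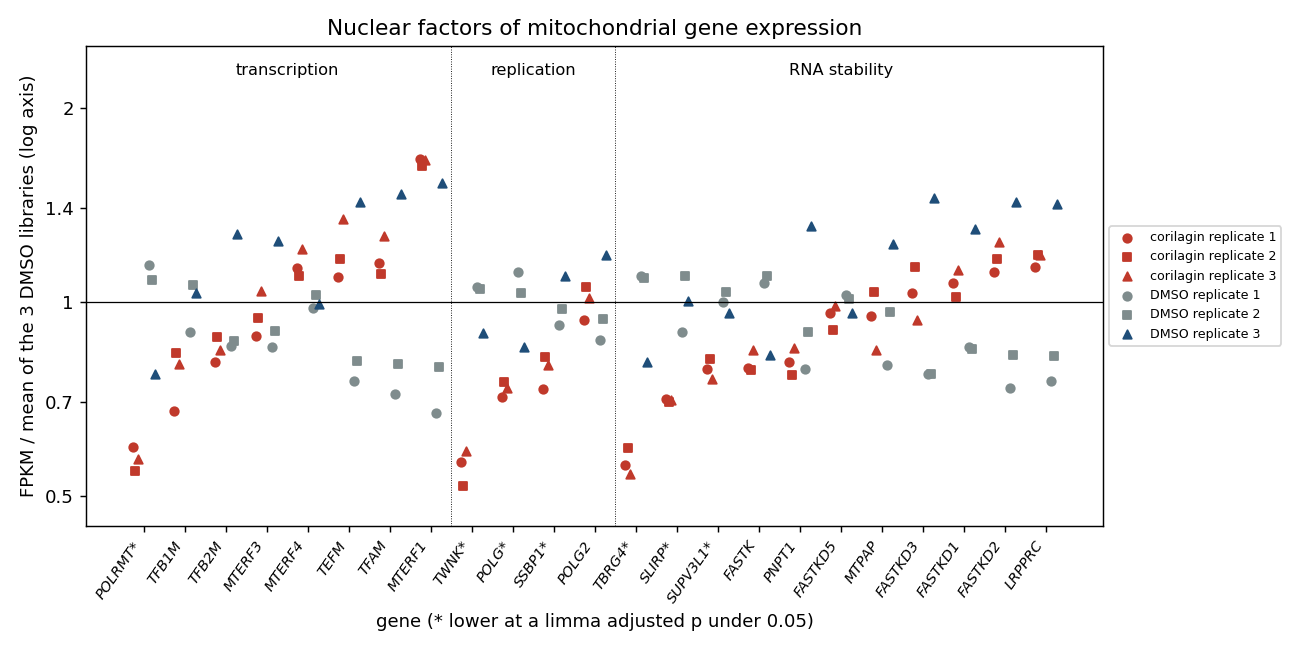
FPKM of each tested nuclear factor divided by its mean over the 3 DMSO libraries (vertical log axis), grouped by role, with 1 point for each library and a star after genes lower at a limma adjusted p under 0.05. The corilagin points of TWNK, POLRMT and TBRG4 lie lowest, and DMSO replicate 3 lies above both other DMSO libraries for TFAM, TEFM, LRPPRC and FASTKD2.

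The direction of the nuclear factors followed their base composition when all libraries were used. Across the 23 factors, Spearman's rho between transcript GC content and log2 difference was -0.643, and it was 0.0188 with DMSO replicate 3 as the only control and -0.730 without DMSO replicate 3. The genes share libraries, so this is a description. POLRMT transcripts have 66.3% GC, TWNK 53.7% and TBRG4 55.1%, while those of TFAM have 38.4% and those of SLIRP and SSBP1 39.4 and 39.1%. With the GC trend removed, 16 of the 23 were lower, beside 23% of all genes, and 1 was higher (MTERF4), beside 21.4%, with a median of -0.32. The 7 that passed without that step were among the 16. With DMSO replicate 3 as the only control, 18 were lower and 0 higher, with a median of -0.32, beside 18.6% and 19.4% of all genes. TFAM and LRPPRC then had log2 differences of -0.32 and -0.26 (limma adjusted p 0.00574 and 0.00628).

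Promoter sequences from RefSeq (GRCh38.p14), 300 bases each, were held for 21 of the 24 nuclear factors, and were searched on both strands for motifs of factors known to act on mitochondrial genes. The NRF1 core GCATGCGC was in 4 of the 21 (TFB1M, TFB2M, POLRMT and MTPAP) and in 3.274% of 27305 promoters. Matches of this core on the 2 strands can overlap, as they do at the second place in POLRMT. The GABPA motif CCGGAAGT was in 5 (POLRMT, TEFM, MTERF1, MTERF4 and SSBP1), beside 4.435%, and the YY1 motif AAGATGGCG in 2 (SLIRP and FASTK), beside 1.849%. The MYC-type E-box CACGTG was in 0 of the 21, beside 7.435%. The promoters of the 3 lower factors that held a searched motif are printed 5′ to 3′ on the gene's strand, with the motif matches of either strand in capitals, from chr19:633488-633787 (minus strand), chr7:141738071-141738370 and chr14:77707853-77708152. A match is a run of letters and no evidence of binding.
POLRMT: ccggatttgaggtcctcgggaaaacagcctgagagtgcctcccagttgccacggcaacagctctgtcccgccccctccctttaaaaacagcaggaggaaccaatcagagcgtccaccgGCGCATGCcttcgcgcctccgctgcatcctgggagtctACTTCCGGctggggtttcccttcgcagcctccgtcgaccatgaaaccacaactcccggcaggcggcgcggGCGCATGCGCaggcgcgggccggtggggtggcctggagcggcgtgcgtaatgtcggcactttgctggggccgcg
SSBP1: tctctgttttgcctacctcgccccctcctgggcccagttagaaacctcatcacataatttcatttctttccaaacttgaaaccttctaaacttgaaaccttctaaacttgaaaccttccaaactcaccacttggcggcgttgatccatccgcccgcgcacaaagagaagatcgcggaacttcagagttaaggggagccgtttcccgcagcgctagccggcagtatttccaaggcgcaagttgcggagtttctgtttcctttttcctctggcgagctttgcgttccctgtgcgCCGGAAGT
SLIRP: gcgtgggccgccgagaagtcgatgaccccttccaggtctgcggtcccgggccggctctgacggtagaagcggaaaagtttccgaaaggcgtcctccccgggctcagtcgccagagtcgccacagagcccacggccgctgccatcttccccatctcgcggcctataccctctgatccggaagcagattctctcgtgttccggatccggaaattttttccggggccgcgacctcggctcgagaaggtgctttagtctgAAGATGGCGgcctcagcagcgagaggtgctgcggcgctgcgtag

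NRF1 and GABPA, whose motifs were searched, did not pass the test themselves. NRF1 had 7.72, 8.54 and 7.92 FPKM after corilagin and 9.86, 9.20 and 8.37 FPKM after DMSO, with a limma adjusted p of 0.195. GABPA had 11.9, 12.7 and 12.8 FPKM after corilagin, against 4.47, 4.29 and 13.8 FPKM after DMSO, with a limma adjusted p of 0.121. In GABPA, DMSO replicate 3 was above every corilagin library and the other 2 DMSO libraries far below.

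Other genes of mitochondrial gene expression, listed by role without the members, gave 32 lower and 7 higher of 102 tested, beside 13.5% lower and 11.9% higher of all tested genes. Their median log2 difference was -0.12, beside 0.03 over all tested genes. Replication, repair and nucleoid genes had 12 lower and 1 higher of 19. ATAD3A, a membrane protein tied to nucleoids, had 15.1 ± 0.281 FPKM after corilagin and 30.9 ± 5.94 FPKM after DMSO (SD, n = 3 each; log2 -0.96, limma adjusted p 0.00751). The base excision enzyme NTHL1 had 3.53 ± 0.267 FPKM after corilagin and 7.77 ± 0.858 FPKM after DMSO (SD, n = 3 each; log2 -0.95, limma adjusted p 0.00302). MGME1, the exonuclease that trims replicating mitochondrial DNA, went the other way, with 34.0, 33.8 and 33.1 FPKM after corilagin, against 21.6, 21.7 and 23.9 FPKM after DMSO. DMSO replicate 3 stayed with the DMSO libraries, and MGME1 rose by 0.57 on the log2 scale (SE 0.0760, limma adjusted p 0.00535). ATAD3A, NTHL1, MGME1 and the methyltransferase MRM1 described next each passed in all 6 fits that left out 1 library.

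RNA processing and modification genes had 9 lower and 1 higher of 28, beside 13.5% and 11.9% of all tested genes. The rRNA methyltransferase MRM1 had 2.37 ± 0.315 FPKM after corilagin and 5.40 ± 0.524 FPKM after DMSO (SD, n = 3 each; log2 -0.92, limma adjusted p 0.00348). ELAC2, which cuts the 3′ ends of tRNAs out of the mitochondrial precursors, was lower by limma (log2 -0.62, adjusted p 0.0180), and ANGEL2 was higher (log2 0.55, limma adjusted p 0.0342), both in only 1 of the 6 fits that left out 1 library, the fit without DMSO replicate 3. Translation factors had 5 lower and 0 higher of 22 beside the same shares. At an unadjusted limma p under 0.05 they had 6 and 2, beside 2068 and 2396 of all 9868 tested genes. The elongation factor TUFM was at 67.0 ± 1.16 FPKM after corilagin and 124 ± 21.3 FPKM after DMSO (SD, n = 3 each, log2 -0.86, limma adjusted p 0.00771). The RNA helicase DHX30 had a log2 difference of -0.59 (limma adjusted p 0.0175). Over the fits that left out 1 library, the highest limma adjusted p was 0.0517 for TUFM, 0.0865 for DHX30, 0.0859 for ELAC2 and 0.127 for ANGEL2.

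Nucleotide supply genes had 4 lower and 3 higher of 19, near the 13.5% lower and 11.9% higher of all tested genes. The p53-inducible ribonucleotide reductase subunit RRM2B had 39.1, 39.9 and 40.6 FPKM after corilagin, against 13.4, 15.0 and 30.2 FPKM after DMSO (log2 1.08, limma adjusted p 0.0303). The mitochondrial nucleotide kinase CMPK2 had 4.29 ± 0.294 FPKM after corilagin and 2.46 ± 0.336 FPKM after DMSO (SD, n = 3 each; log2 0.62, limma adjusted p 0.00904). The thymidine phosphorylase gene TYMP was lower, with a log2 difference of -0.47 (limma adjusted p 0.0216). Biogenesis regulators had 2 lower and 2 higher of 14, about the same shares as all tested genes (13.5% and 11.9%). The coactivator PPRC1 had 8.24 ± 0.102 FPKM after corilagin and 13.9 ± 1.71 FPKM after DMSO (SD, n = 3 each; log2 -0.69, limma adjusted p 0.00771), and its relative PPARGC1B was also lower (log2 -0.54, limma adjusted p 0.00847). MEF2A and the deacetylase SIRT1 were higher, with log2 differences of 1.02 and 0.76 (limma adjusted p 0.00940 and 0.0300). Of these 7 genes, TYMP, RRM2B and SIRT1 passed only in the fit without DMSO replicate 3 among those that left out 1 library. PPRC1, CMPK2 and MEF2A also passed without DMSO replicate 1 or 2, and PPARGC1B without corilagin replicate 1 too. PPARGC1A was below the level filter.

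Nuclear genes for respiratory chain subunits had 35 lower and 1 higher of 70, beside 13.5% lower and 11.9% higher of all tested genes, with a median log2 difference of -0.31. By complex, 15 of 33 were lower for complex I, 5 of 9 for complex III, 8 of 11 for complex IV and 7 of 17 for complex V. The complex I subunit NDUFS6 had 53.0 ± 1.45 FPKM after corilagin and 96.3 ± 11 FPKM after DMSO (SD, n = 3 each; log2 -0.84, limma adjusted p 0.00373), and ATP5MC1, a gene for the ATP synthase c-ring, had 17.4 ± 0.188 and 31.2 ± 3.69 FPKM (SD, n = 3 each; log2 -0.80, limma adjusted p 0.00442). CYC1, the cytochrome c1 gene, was lower as well (log2 -0.76, limma adjusted p 0.0149), and NDUFC2 was the higher one (log2 0.41, limma adjusted p 0.0360). NDUFS6 and ATP5MC1 passed in all 6 fits that left out 1 library, CYC1 in the 2 without DMSO replicate 1 or 3, and NDUFC2 in the fit without DMSO replicate 3. All these counts moved with single libraries. Without DMSO replicate 3 the nuclear subunits gave 44 lower and 9 higher, beside 36.5% and 40.8% of all tested genes. Without any 1 of the other libraries they gave 3 to 13 lower and 0 higher. Over all 9868 tested genes those fits gave 176 to 483 lower and 131 to 369 higher.

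**Figure D5:**
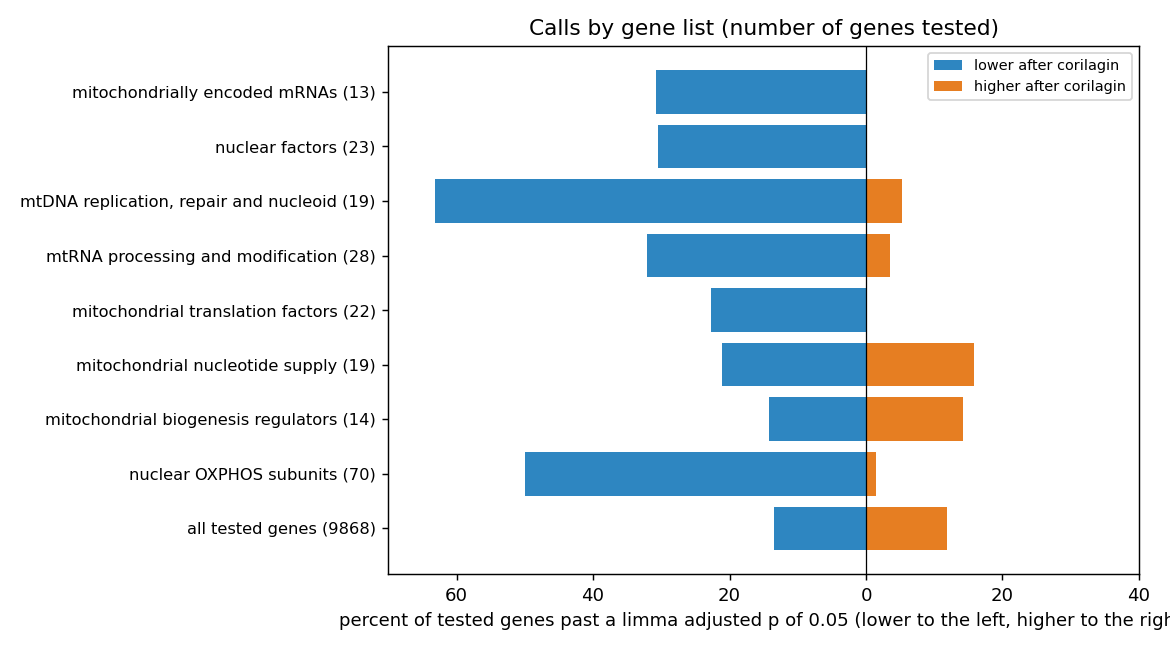
Percent of the tested genes of each list that were lower (left of 0) or higher (right of 0) after corilagin at a limma adjusted p under 0.05, with the number tested in parentheses. Among the lists drawn, the replication, repair and nucleoid list (12 of 19 lower) and the nuclear OXPHOS subunits (35 of 70 lower) have the longest left bars, against 13.5% lower and 11.9% higher over all tested genes.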

How the data were processed

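Per the labels' protocols, poly(A) RNA was captured from 3 micrograms of total RNA and read as pairs of 150 bases. Per the submitters' processing notes, fastp 0.22.0, HISAT2 2.1.0, HTSeq 0.9.1, DESeq 1.38.3 and the build GRCh38 were used, without stated settings. The authors deposited FPKM values for 20036 genes in 6 libraries. From their steps, whole fragments were recovered for all 15921 genes above 0 (tolerance 0.001), and 13 mitochondrial genes agreed on each library total within 0.003 fragments. No libraries were identical, and the closest pair differed beyond sampling noise (chi-square 2.44 per gene).

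Groups were compared in all 6 libraries on the log2(FPKM + 1) scale with limma 3.58.1 (R 4.3.3; linear model and trended empirical Bayes, 2-sided). The 9868 genes whose mean reached 1 FPKM were tested, with Benjamini-Hochberg adjustment and a threshold of 0.05. Fold changes on that scale understate changes of low genes, so ratios of mean FPKM are also given. On simulated data, 96 of 100 genes changed by 1.5-fold and 98 of 100 changed by 2-fold were recovered, with 9 calls among the unchanged genes. The simulated libraries had little spread within a group and no GC shift between replicates. These rates therefore check the code and do not give the sensitivity in the real libraries. GC trends were removed per library by a natural spline with 5 degrees of freedom on GC of the longest GENCODE 29 transcript. Symbols were matched for 20011 identifiers. In the translation factor list, 25 of 26 symbols were matched.

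Alternatives covered pseudocount, level filter, scaling, quantile normalization, GC trend, replicate block, limma-voom on recovered fragments and left-out libraries. All members were accounted for; of each other list, up to 2 rises and 2 falls of largest log2 difference were named among genes that passed without overlap, NRF1 and GABPA being named after their values were seen. A few genes that these rules name are not reported here. The members, lists and tests were chosen with earlier results of these data known.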

Additional observations from a re-analysis of the deposited data

How the results depend on the processing

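Over all tested genes, 1171 were higher and 1331 lower. Removing the GC trend gave 2113 and 2267, the replicate block with the GC trend removed 2105 and 2207, DMSO replicate 3 as the only control 1916 higher, and a filter at a mean of 5 FPKM 713 higher. Setting FPKM sums equal moved the split to 1620 higher and 1059 lower and the median log2 difference of all genes to 0.14, beside -0.29 over the mitochondrial mRNAs. Leaving out 1 library gave 131 to 4030 higher and 176 to 3597 lower. The replicate block alone gave 1547 higher and 1330 lower, and quantile normalization gave 1028 and 1498. Equal nuclear sums gave 1385 higher and 1170 lower, and no level filter gave 693 and 935 of the same genes. The 4 lower mitochondrial mRNAs became 0 without a level filter, 7 with the GC trend removed, 10 when the replicate block was added to that, 6 with the replicate block alone, 3 after quantile normalization (MT-CO3 lost), and 0 to 13 with 1 library left out. The 7 lower nuclear factors became 16 with the GC trend removed, 16 with the block and the GC trend, 18 with DMSO replicate 3 as the only control, 5 without a level filter (POLG and SSBP1 lost), 5 with equal sums (SSBP1 and SUPV3L1 lost), 6 with equal nuclear sums (SSBP1 lost) and 1 to 9 with 1 library left out; higher ones numbered 1 with the GC trend removed, 1 with the replicate block and 0 to 8 with 1 library left out. Deviations from the group means correlated between same-numbered libraries at 0.280, 0.0790 and 0.339, and at 0.096, 0.024 and 0.122 with the GC trend removed. Of the 6 libraries, 5 correlated best with their own number. Whether replicate numbers mark pairs was not settled, so fits with and without the block are given. Other genes of mitochondrial gene expression gave 4 higher without a filter, 12 and 51 lower with the GC trend removed, 11 and 50 with the block and GC trend, 12 higher with DMSO replicate 3 alone, and 1 to 33 higher and 3 to 50 lower with 1 library left out. Nuclear OXPHOS subunits gave 0 higher without a filter, at 5 FPKM and after quantile normalization, 2 under each of the GC removal, the block with GC removal and DMSO replicate 3 alone, 0 to 9 higher and 3 to 44 lower with 1 library left out.

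Single log2 differences that turned sign were small under other scalings and quantile normalization. They were mostly larger with the GC trend removed and with DMSO replicate 3 as the only control. Quantile normalization gave 0.032 for MT-ND4, 0.031 for MT-CYB and -0.064 for POLG2. With the GC trend removed, with or without the block, TFAM was -0.13, TEFM -0.20, FASTKD1 -0.32, FASTKD2 -0.255 and FASTKD3 -0.32. With DMSO replicate 3 as the only control, MT-CYB was 0.012, TFAM -0.32, TEFM -0.22, POLG2 -0.22, LRPPRC -0.26, FASTKD1 -0.26, FASTKD2 -0.23 and FASTKD3 -0.44. Equal sums gave MTERF3 0.072, FASTKD5 0.044 and MTPAP 0.041, equal nuclear sums gave MTERF3 0.012, and median-of-ratios scaling gave POLG2 -0.0085. With 1 library left out, MTERF3 ranged from -0.14 to 0.12, POLG2 from -0.069 to 0.13, FASTKD3 from -0.040 to 0.36 and MTPAP from -0.18 to 0.079. The cause was not tested. All 36 members kept direction and side of the threshold under a pseudocount of 0.1 and under limma-voom on recovered fragments. The edgeR and DESeq2 alternatives were not run, since the deposited unit is FPKM.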
